A study of Mus musculus with 2 samples.

Results

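The genes described here are 9 members of the epidermal growth factor (EGF) family system of the mouse, chosen by name from all genes of the count tables. There are 6 ligands, Areg, Ereg, Hbegf, Tgfa, Btc and Nrg1, and 3 receptors, Egfr, Erbb2 and Erbb3. All 9 were found, and each had at least 50 UMIs (unique molecular identifiers, 1 per captured transcript molecule) in the retained cells of both libraries. Their totals ran from 178 UMIs for Ereg in the CL library to 164183 UMIs for Areg in the same library.

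EGF family ligands are made as membrane-anchored precursors, and proteases such as ADAM17 release their soluble forms. Amphiregulin (Areg) and TGF-alpha (Tgfa) bind EGFR, epiregulin (Ereg), HB-EGF (Hbegf) and betacellulin (Btc) bind EGFR and ERBB4, and neuregulin 1 (Nrg1) binds ERBB3 and ERBB4. ERBB2 has no known ligand and acts as a partner of the other receptors, and ERBB3 has little kinase activity of its own. In the mammary gland, amphiregulin is known as the oestrogen-induced ligand of the hormone-receptor-positive luminal cells, and EGFR in the stroma is known to be needed for duct growth.

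Mammary glands of adult wild-type female mice, 9 to 10 weeks old per the sample labels (from 8 weeks per the protocol), gave 2 droplet libraries. The Ctrl library came from control mice and the CL library from mice given clodronate liposomes, which kill phagocytic macrophages. The sort took CD45-positive immune cells and cells without CD31 and TER119, in a proportion that was not stated. Strain, the number of mice per library and what the control mice were given were not stated for these libraries. With 1 library a group, no difference between groups could be tested, and treatment, mice and library preparation cannot be told apart. All intervals are exact 95% intervals that cover counting error only.

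After filtering, 5937 Ctrl cells with a median of 11351 UMIs and 8826 CL cells with a median of 10337 UMIs were kept. Cells were clustered without the 9 genes, and clusters were named by their resemblance to marker lists, so that each class name means "-like". Classes with at least 50 cells in each library were hormone-responsive (HR) luminal (2242 Ctrl and 3071 CL cells), secretory-lineage luminal (2657 and 3913), basal (408 and 444), fibroblast (225 and 239), endothelial (55 and 61), macrophage (60 and 254) and T and NK cells (213 and 735). The CL sample is labelled as macrophage-depleted, yet its retained cells were 2.88% macrophage class, against 1.01% in Ctrl. Its cluster with complement C1q genes held 0.691% and 0.487% of cells, and its cluster led by Lyz2 and S100a8 held 0.303% and 2.39%. Cells and classes were rebuilt here from UMI totals and markers, so their shares may differ from those of the study's own cell types. Levels are given as CPM, the UMIs of a gene per 1000000 UMIs of the class in that library, beside the level in empty droplets of 100 to 300 UMIs, which measures free RNA. The T and NK class is given as a second measure of background, although some T cells are known to make amphiregulin and doublets that were not removed can add RNA of other classes.

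Areg, Ereg and Btc lie close together on chromosome 5 with a further ligand gene, Epgn (epigen). On GRCm38 (GENCODE M21) the protein-coding genes in this stretch are, in order, Epgn at chr5:91027464-91035215, Ereg at chr5:91074622-91093646 and Areg at chr5:91139599-91148432, all on the plus strand, and Btc at chr5:91357261-91402994 on the minus strand. The gaps between neighbours are 39406, 45952 and 208828 bases. The remaining members lie elsewhere, Tgfa at chr6:86195223-86275719, Nrg1 at chr8:31814551-32884029, Erbb3 at chr10:128567523-128589652, Egfr at chr11:16752203-16918158 and Erbb2 at chr11:98412470-98437716. The 250 bases before the start of 3 of the 4 clustered genes are shown, because Areg, Epgn and Btc were each at their highest in HR luminal cells of the Ctrl library. They are from RefSeq (GRCm38.p6), 5′ to 3′ on the strand of the gene, Areg at chr5:91139349-91139598, Epgn at chr5:91027267-91027516 and Btc at chr5:91402995-91403244. RefSeq starts Epgn downstream of the GENCODE start, so the end of the Epgn window lies inside the gene as placed above, and distances are counted from the RefSeq start. Capitals mark matches to 5 motifs.
Areg: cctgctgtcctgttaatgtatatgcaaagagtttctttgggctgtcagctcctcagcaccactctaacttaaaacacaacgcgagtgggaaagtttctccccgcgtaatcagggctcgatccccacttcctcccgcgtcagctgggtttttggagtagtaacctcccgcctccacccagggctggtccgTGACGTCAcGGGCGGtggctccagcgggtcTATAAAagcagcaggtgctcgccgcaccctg
Epgn: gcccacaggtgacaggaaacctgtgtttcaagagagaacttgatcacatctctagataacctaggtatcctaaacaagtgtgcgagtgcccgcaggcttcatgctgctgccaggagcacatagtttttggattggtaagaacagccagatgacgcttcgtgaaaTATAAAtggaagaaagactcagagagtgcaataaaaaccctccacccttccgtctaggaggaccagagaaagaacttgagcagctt
Btc: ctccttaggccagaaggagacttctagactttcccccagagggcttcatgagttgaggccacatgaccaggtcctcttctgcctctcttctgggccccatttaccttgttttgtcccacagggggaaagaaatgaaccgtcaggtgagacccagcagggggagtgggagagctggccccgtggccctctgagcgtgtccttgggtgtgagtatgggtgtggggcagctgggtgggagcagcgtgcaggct

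The motifs were searched on both strands. They were the cAMP response element TGACGTCA, the AP-1 site TGANTCA, the nuclear receptor half-site AGGTCA, the GC box GGGCGG and the TATA box TATAAA. The Areg window held TGACGTCA with its first base 61 bases before the start, GGGCGG at 52 and TATAAA at 31, and no marked matches overlapped. The Epgn window held TATAAA at 86, and the Btc window held no match. Of 32851 RefSeq windows of the same length, 1.55% held TGACGTCA, 6.75% TGANTCA, 14.0% AGGTCA, 32.7% GGGCGG and 12.4% TATAAA. A match describes the letters only. Of the 9 members, 5 had a window in the table.

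Areg was highest in HR luminal cells, with 2659 CPM (2644 to 2674) in Ctrl and 2539 CPM (2527 to 2552) in CL. These cells held 95.2% and 95.7% of all Areg UMIs in retained cells. Every other class lay far lower, between 104 and 174 CPM in Ctrl, where the highest of them was the T and NK class. In Ctrl no neighbours in the order of those 6 classes differed beyond counting error, although its ends did, with 174 CPM (150 to 201) in T and NK and 104 CPM (93.97 to 114.75) in basal cells. Empty droplets held 1778 and 1458 CPM of Areg. Class levels at or below that of the T and NK class were therefore read as background and not as expression. That measure was uneven, with 230 and 195 CPM in T and NK cluster 10 and 133 and 95.5 CPM in cluster 13. In Ctrl, secretory-lineage cluster 0 had 214 CPM (205 to 223), above the T and NK class but not above cluster 10. Whether its cells make Areg was not tested. In CL the endothelial class (586 CPM) and the fibroblasts (251 CPM) lay above the 153 CPM of T and NK cells. In each of them 1 cell held most of the UMIs, 203 of 303 and 221 of 416, and without the cell with most Areg the levels were 215 and 124 CPM.

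Ereg showed another pattern, although its gene lies next to Areg. It was highest in fibroblasts, with 104 CPM (89.6 to 120) in Ctrl and 41.0 CPM (31.9 to 52.0) in CL. Basal cells came next, with 19.2 CPM and 26.1 CPM, and the fibroblast level was 5.40-fold the basal level in Ctrl and 1.57-fold in CL. In HR luminal cells Ereg stood at 0.211 and 0.275 CPM, under the 3.27 and 1.26 CPM of empty droplets. Few cells carried it, 42 of the Ctrl and 17 of the CL fibroblasts.

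Hbegf was led by secretory-lineage luminal cells, the lineage of milk-producing cells, with 1204 CPM in Ctrl and 1111 CPM in CL. Endothelial cells held 1137 CPM in Ctrl, within counting error of the secretory cells, and 652 CPM in CL. Basal cells followed with 533 and 524 CPM, then HR luminal cells with 166 and 236 CPM. The T and NK class had 52.6 and 39.4 CPM and the droplets 197 and 197 CPM. The HR luminal level was below the droplet level in Ctrl and above it in CL, and without cluster 9, described further on, it was below in both, at 129 and 156 CPM. Among secretory-lineage cells of at least 5000 UMIs the 10th, 50th and 90th percentiles of Hbegf were 101, 879 and 2804 CPM in Ctrl and 85.3, 789 and 2691 CPM in CL.

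Nrg1 had its highest level in basal cells, the contractile outer layer of the duct, with 231 CPM (216 to 246) in Ctrl and 230 CPM (213 to 248) in CL. Secretory-lineage cells came next with 29.6 and 35.6 CPM, a lead of 7.80-fold and 6.46-fold for basal cells. Secretory-lineage cells, the larger class, held 46.4% and 57.1% of all Nrg1 UMIs in retained cells and basal cells 44.8% and 25.3%. In HR luminal cells Nrg1 stood at 2.47 and 6.13 CPM and in T and NK cells at 0 and 1.31 CPM. Tgfa had no single leading class beyond counting error in CL. Basal cells had 46.6 and 41.7 CPM and secretory-lineage cells 37.8 and 41.5 CPM, which in CL differed by less than counting error. HR luminal cells had 12.6 and 13.5 CPM, close to the 10.1 and 9.66 CPM of T and NK cells and below the 26.1 and 28.9 CPM of droplets. Endothelial cells had 34.8 and 19.4 CPM of Tgfa on 10 UMIs in each library, in Ctrl within counting error of the secretory-lineage level. Btc had 21.9 and 15.8 CPM in HR luminal and 12.5 and 9.56 CPM in secretory-lineage cells. Its endothelial level in CL, 15.5 CPM, rested on 8 UMIs and did not differ from the HR level beyond counting error.

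The receptors divided the classes in a different way. Egfr was highest in fibroblasts, with 242 CPM (220 to 266) in Ctrl and 207 CPM (186 to 231) in CL. Basal cells had 49.0 and 39.4 CPM, so fibroblasts were 4.95-fold and 5.26-fold higher, and secretory-lineage cells had 32.4 and 29.9 CPM. HR luminal cells, which held most Areg UMIs, had 1.75 and 3.46 CPM of Egfr, under the 12.2 and 10.0 CPM of empty droplets. In Ctrl their Egfr level did not differ from that of T and NK cells (0.922 CPM) beyond counting error.

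Erbb3 was highest in HR luminal cells, with 90.7 CPM (88.0 to 93.5) in Ctrl and 80.5 CPM (78.3 to 82.8) in CL. Secretory-lineage cells had 36.9 and 27.3 CPM, 2.46-fold and 2.95-fold lower than HR luminal cells. Basal cells, the class with the highest Nrg1 level, had 7.63 and 9.35 CPM of Erbb3, close to the 6.46 and 6.27 CPM of T and NK cells. Erbb2 was at 20.2 and 15.0 CPM in HR luminal cells and 11.6 and 10.96 CPM in secretory-lineage cells. Endothelial cells had 13.9 and 13.5 CPM of Erbb2 on 4 and 7 UMIs, within counting error of the HR luminal level. Taken as the class with the highest CPM, the leading class of each of the 9 members was the same in both libraries. The first and second classes were within counting error for Hbegf in Ctrl, Tgfa and Btc in CL and Erbb2 in both libraries.

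**Figure D1:**
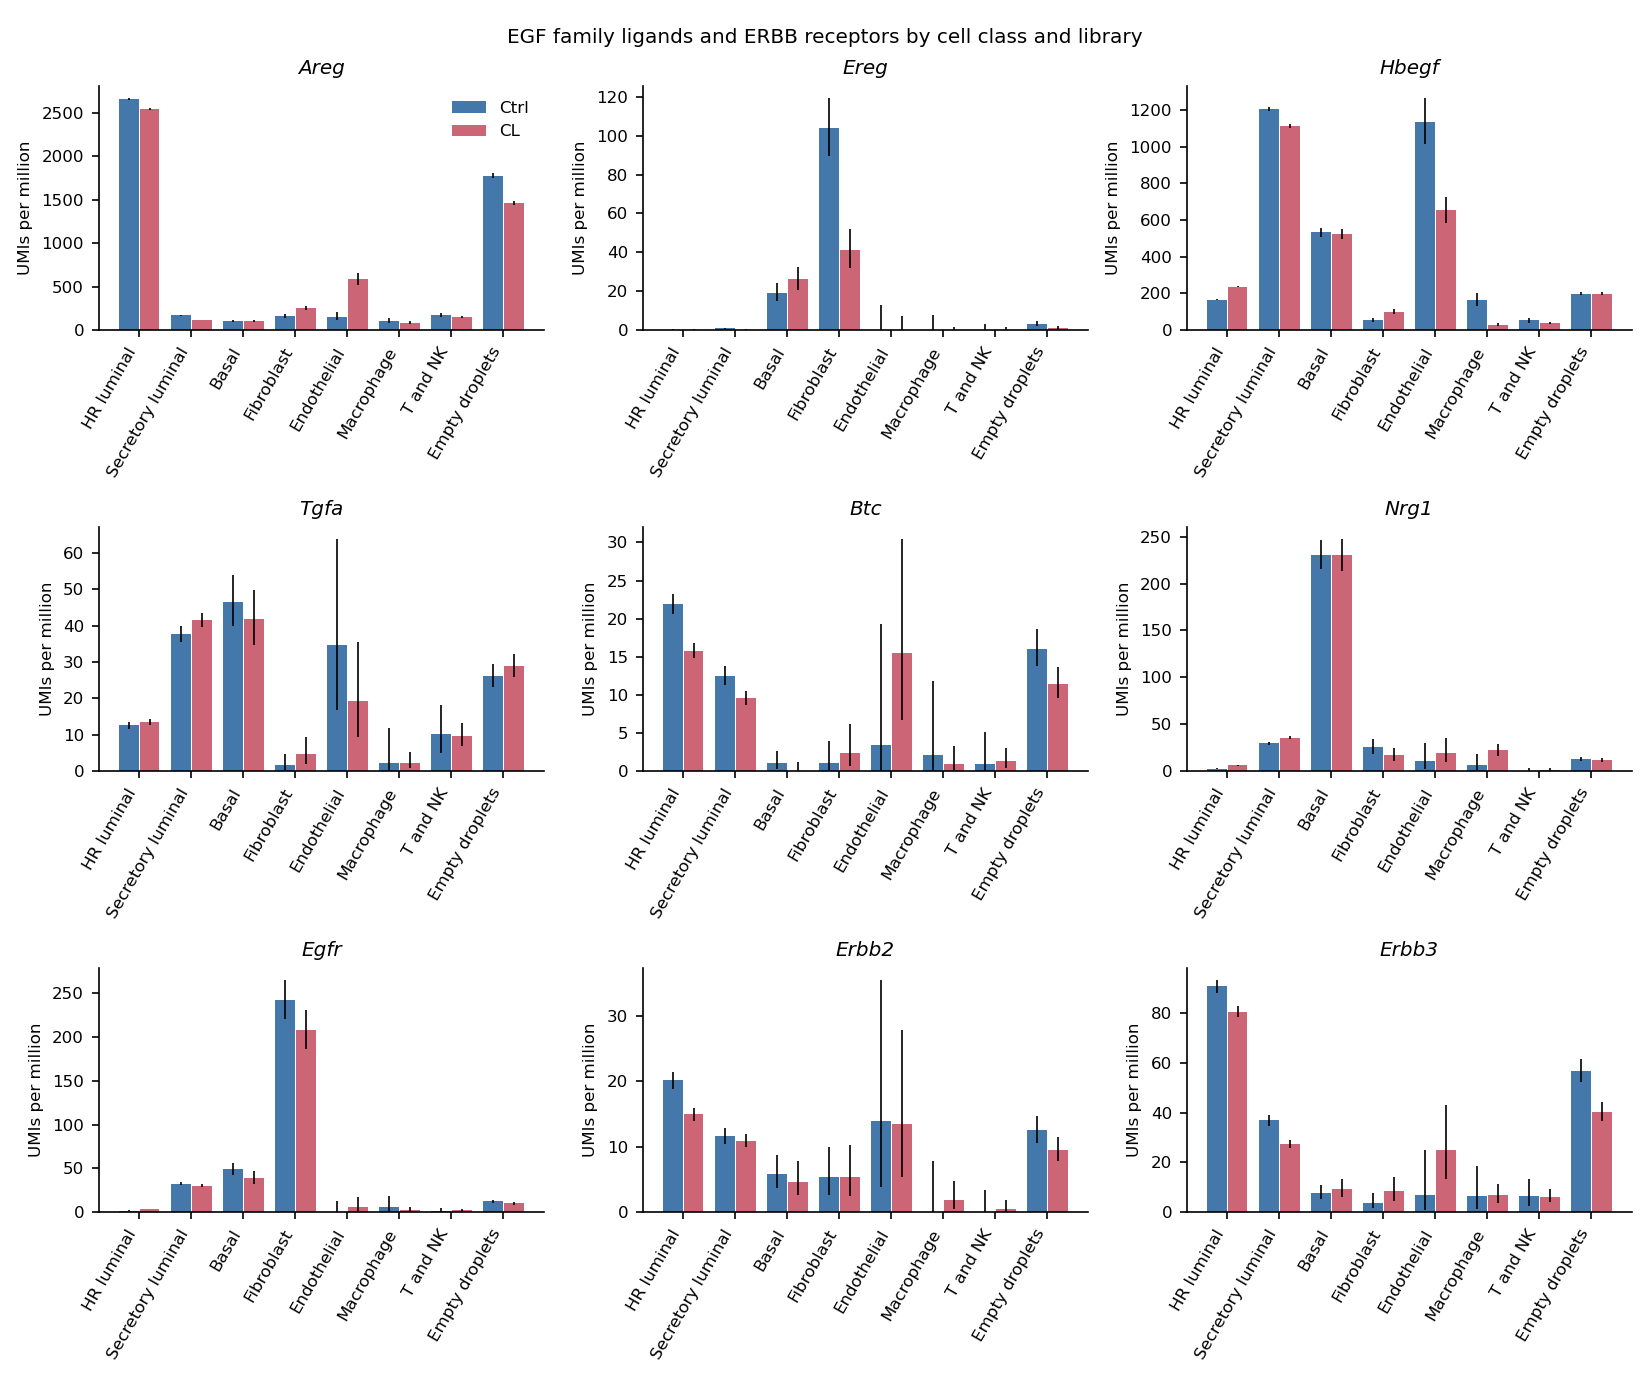
Level of each of the 9 genes in CPM (vertical axis, linear from 0, a different scale in each panel) in 7 cell classes and in empty droplets, for the Ctrl and CL libraries, with exact 95% Poisson intervals. Areg stands out in HR luminal cells and droplets, Hbegf in secretory-lineage and endothelial cells, Nrg1 in basal cells and Egfr in fibroblasts.

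The clusters of HR luminal cells differed in Areg. In Ctrl it stood at 3692 CPM in cluster 1, whose leading genes include Upk3a and Fgb, and at 3614 CPM in cluster 7, led by Gpx3 and Aoc1. It was lower in cluster 2 (1984 CPM), in cluster 12 (1421 CPM) and in cluster 9 (1198 CPM). The CL library had 3591, 3466, 1681, 1341 and 1471 CPM in the same clusters, so that clusters 1 and 7 were again the highest. The largest cluster of the class differed between the libraries. Cluster 7, with 796 Ctrl and 62 CL cells, was the largest in Ctrl, and cluster 1, with 320 and 1455 cells, in CL. The class level of Areg therefore differed little while its clusters were filled differently. Among HR luminal cells of at least 5000 UMIs, the 10th, 50th and 90th percentiles of Areg were 113, 1756 and 6821 CPM in Ctrl and 83.6, 1569 and 6651 CPM in CL.

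Hbegf varied less among the secretory-lineage clusters. Cluster 0, led by Csn3, Aldh1a3 and Plet1, had 1673 CPM in Ctrl and 1841 CPM in CL. The other 4 clusters lay between 1000 and 1053 CPM in Ctrl and between 863 and 1010 CPM in CL. Cluster 6, which had 24 Ctrl and 953 CL cells, stood at 1041 and 923 CPM and was within those ranges. Cluster 9 of the HR luminal class had 582 and 542 CPM of Hbegf, where clusters 1, 2, 7 and 12 had 119 to 136 CPM in Ctrl and 148 to 170 CPM in CL, and dividing cluster 15, with its cells of all classes, had 240 and 188 CPM. Cluster 9 has Ltf, a secretory-lineage marker, among its leading genes, and its cells were deep, with medians of 27613 and 25856 UMIs. Its marker score was 2.977 for HR luminal and 1.766 for secretory-lineage cells. The latter lay just under the rival limit at which a cluster stayed unnamed. Cluster 9 made up 6.02% and 15.1% of the cells of the HR luminal class. It held 51.8% and 79.0% of the Egfr UMIs of the class and 47.9% and 69.4% of the Nrg1 UMIs.

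**Figure D2:**
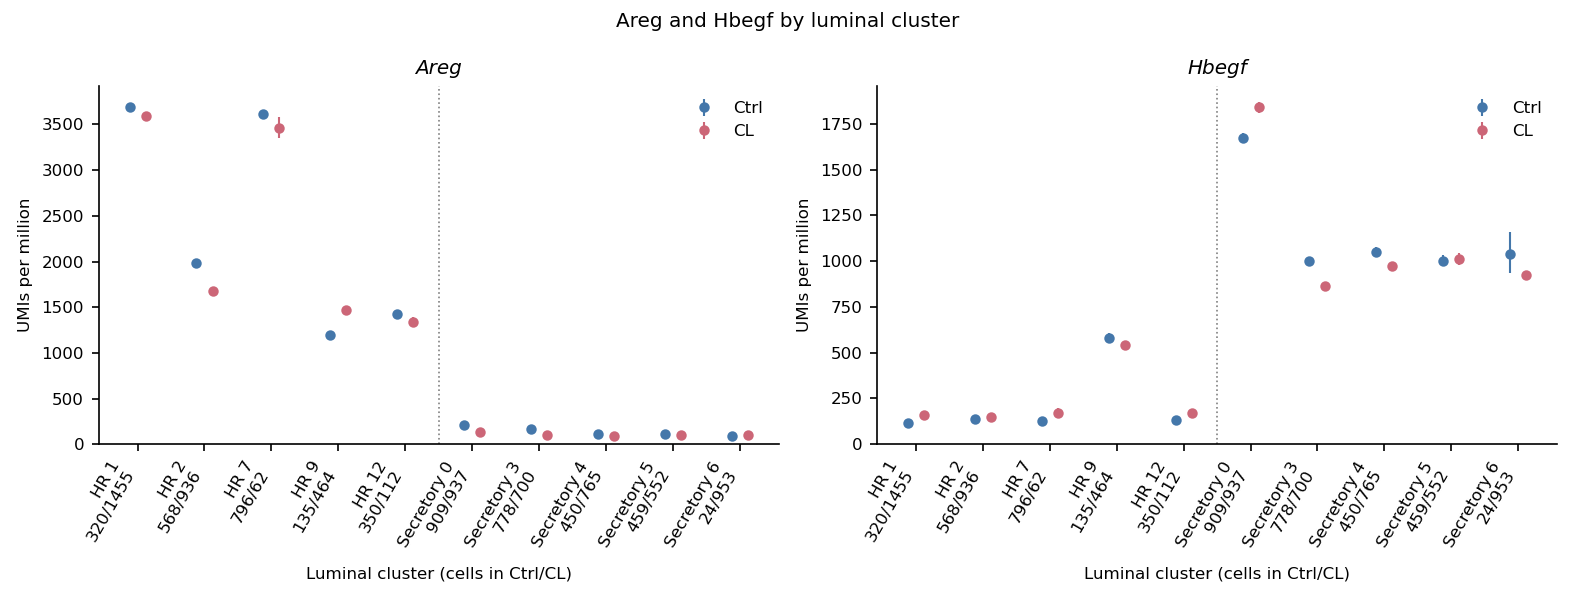
Areg and Hbegf in CPM (vertical axis, linear from 0) in each luminal cluster of at least 50 cells, with the cells per library under each cluster number and exact 95% Poisson intervals. Areg is highest in HR clusters 1 and 7 in both libraries, Hbegf is highest in secretory cluster 0, and HR cluster 9 lies between the lineages for Hbegf.

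The share of cells with a UMI was compared after thinning each cell to 2000 UMIs, which left out 9 to 85 cells in each of the 4 largest epithelial and stromal groups per library. Areg was found in 78.4% of HR luminal cells in Ctrl (76.6% to 80.1%) and 76.0% in CL (74.5% to 77.5%), where 96.3% and 94.4% had a UMI before thinning. T and NK cells, with a median of 4872 and 4456 UMIs against 20311 and 18017 in HR luminal cells, had Areg in 21.6% and 15.6%. The other 5 classes lay between 14.5% and 24.5%. The highest share, 24.5% (13.8% to 38.3%), was that of 53 endothelial cells in CL, and its interval included the 15.6% of T and NK cells. No reading was made of that share, and the others were read as background. Hbegf was found in 71.5% and 69.7% of secretory-lineage cells, 69.6% and 45.3% of endothelial cells and 43.1% and 43.5% of basal cells, against 5.67% and 4.81% of T and NK cells. Nrg1 was found in 26.8% and 27.3% of basal cells. Egfr was found in 33.2% and 26.1% of fibroblasts and in 0.274% and 0.298% of HR luminal cells. Erbb3 was found in 17.1% and 15.6% of HR luminal cells and in 6 of 399 and 8 of 400 basal cells. For Tgfa in CL the secretory-lineage share of 7.47% was above the basal share of 6.50%, against the order of CPM, and no order was read from it.

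**Figure D3:**
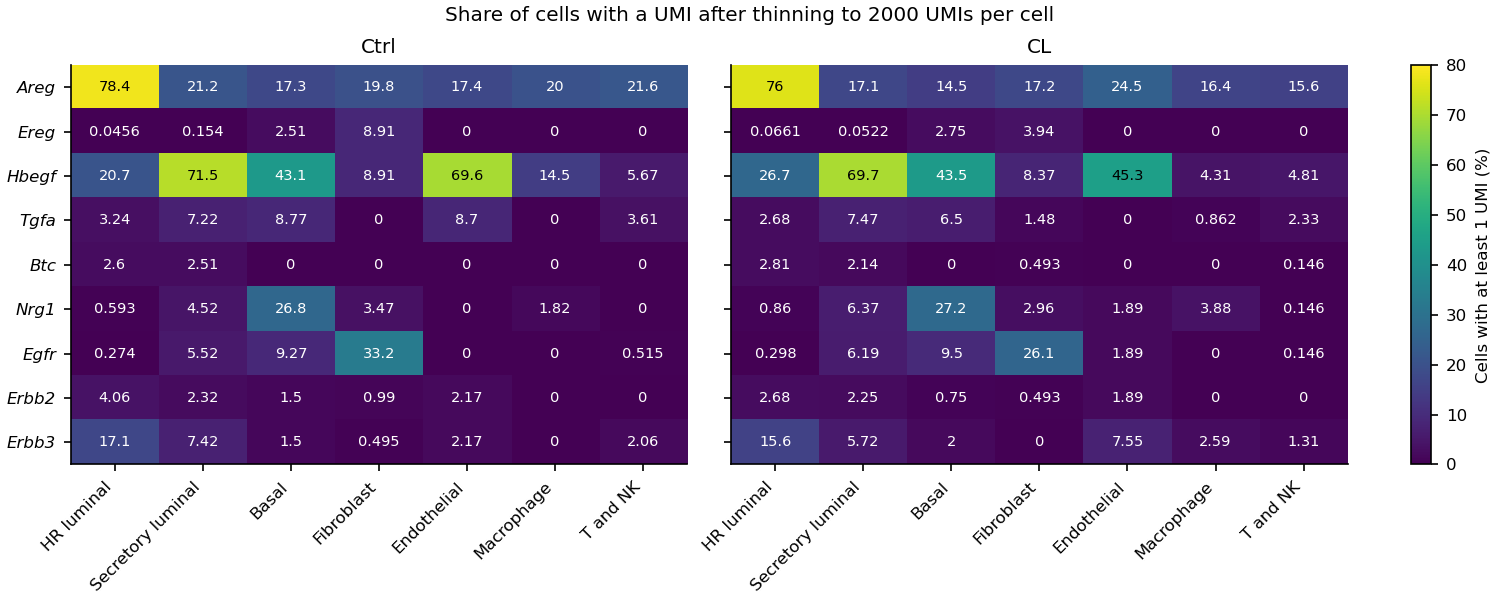
Share of cells, in percent, with at least 1 UMI of each gene (rows) in each class (columns) after thinning every cell to 2000 UMIs, for Ctrl (left) and CL (right). Areg is at 78.4% and 76.0% in HR luminal cells and near the T and NK share in most other classes, and Egfr reaches 33.2% and 26.1% in fibroblasts.

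Ligand and receptor UMIs were then compared within single thinned cells. Among HR luminal cells with Areg, Egfr was found in 4 of 1719 Ctrl cells, 0.233% (0.0634% to 0.595%), and in 4 of 2299 CL cells, 0.174% (0.0474% to 0.445%). In those without Areg it was found in 2 of 474 Ctrl cells (0.422%) and 5 of 725 CL cells (0.690%), with overlapping intervals. Erbb3 was found in 17.3% of Ctrl HR luminal cells with Areg and 16.5% of those without it, and in 15.7% and 15.4% in CL, with overlapping intervals. Among secretory-lineage cells, Egfr was found in 5.95% of those with Hbegf and 4.47% of those without in Ctrl, again with overlapping intervals. In CL the shares were 6.93% of 2668 cells and 4.48% of 1160 cells, whose exact intervals did not overlap. Thinning to 4000 UMIs exchanged the libraries in this respect. The shares were then 11.7% (10.4% to 13.2%) and 7.28% (4.97% to 10.2%) in Ctrl and 11.2% (10.1% to 12.4%) and 9.25% (7.18% to 11.7%) in CL, so whether the intervals overlapped depended on the depth. Erbb3 in the same cells went the other way at 4000 UMIs, at 12.4% (10.99% to 13.8%) with Hbegf and 19.9% (16.2% to 24.1%) without in Ctrl and at 9.02% and 14.1% in CL, with intervals that did not overlap in either library. At 2000 UMIs its shares were 6.81% and 8.93% in Ctrl and 5.77% and 5.60% in CL, with overlapping intervals. The secretory-lineage clusters differed in these genes too. Cluster 0 had their highest levels of Hbegf and of Egfr, the latter at 41.6 and 34.7 CPM. It also had their lowest Erbb3 level, 25.5 and 17.8 CPM. Shares were not compared within clusters, so the part of the mix of clusters was not tested. In CL, Erbb3 was found in 14 of 82 secretory-lineage cells with Btc (17.1%) and 5.47% of those without at 2000 UMIs, with intervals that did not overlap, and in 13.7% and 9.84% at 4000 UMIs, where they did. Among basal cells with Nrg1, Erbb3 was found in 0 of 107 Ctrl cells, with an exact upper limit of 3.39% for cells with a UMI at this depth, and in 2 of 109 CL cells (1.83%).

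For the comparison of CL with Ctrl, a gene needed at least 50 UMIs over both libraries in the class, and a difference of at least 1.5-fold either way was past the limit. In HR luminal cells 8 of 9 members were measured and 2 were past the limit, against 9.09% of all 13450 genes measured. The members' median log2 ratio of CL over Ctrl was 0.02 and that of all genes -0.02. Both members were low in this class. Nrg1 had 117 Ctrl and 379 CL UMIs (log2 ratio 1.31, 1.01 to 1.62), at levels below the 12.4 and 11.5 CPM of droplets, and Egfr had 83 and 214 UMIs (0.98, 0.61 to 1.36). Without cluster 9 Egfr stood at 0.919 and 0.918 CPM, and its log2 ratio was -0.00 (-0.65 to 0.65). Nrg1 without that cluster stood at 1.40 and 2.37 CPM, a log2 ratio of 0.76 (0.30 to 1.23). The 11 secretory-lineage markers together stood at 878 and 1714 CPM in the HR luminal class, and their part in these differences was not tested beyond leaving out the cluster.

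The other 6 measured members of HR luminal cells stayed inside the limit. Hbegf was 0.51 higher on the log2 scale (0.47 to 0.55), or 0.27 higher without cluster 9. Btc was -0.47 (-0.60 to -0.34) and Erbb2 -0.43 (-0.56 to -0.30), both lower in CL beyond counting error. Their droplet levels were lower in CL too, at 16.1 and 11.4 CPM for Btc and 12.5 and 9.55 CPM for Erbb2, as was that of Erbb3, at 56.8 and 40.3 CPM, and the part of free RNA in these differences was not tested. Erbb3 was -0.17 (-0.23 to -0.11), Areg -0.07 (-0.08 to -0.06) and Tgfa 0.10 (-0.05 to 0.26). Areg was 0.02 without cluster 9, so its small difference changed sign with the cells included. Btc was lower in CL in each of the 5 HR luminal clusters and in dividing cluster 15 as a whole, from a log2 ratio of -0.33 in cluster 1 to -1.32 in cluster 9.

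In secretory-lineage cells none of the 8 measured members was past the limit, against 7% of all 12390 genes. Their median log2 ratio was -0.12 and that of all genes -0.04. Hbegf was -0.12 (-0.14 to -0.10), Erbb3 -0.44 (-0.56 to -0.32), Btc -0.39 (-0.59 to -0.18) and Nrg1 0.27 (0.15 to 0.39). Secretory-lineage Btc and Erbb3 lay below their droplet levels in both libraries. Areg came closest to the limit, at -0.56 (-0.61 to -0.50), from 168 to 115 CPM. Those levels were below the 174 and 153 CPM of T and NK cells, and droplet Areg was lower in CL as well, at 1458 against 1778 CPM.

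In basal cells none of the 7 measured members was past the limit either, against 9.04% of all 8381 genes. Nrg1 stood out for its likeness between libraries, with a log2 ratio of -0.00 (-0.15 to 0.14), as did Hbegf with -0.02 (-0.12 to 0.07). Egfr was -0.31 (-0.66 to 0.03), Tgfa -0.16 (-0.50 to 0.18), Ereg 0.44 (-0.04 to 0.92) and Erbb3 0.29 (-0.51 to 1.09), each with an interval that included 0. The basal intervals of Egfr, Ereg and Erbb3 reach past the limit, so a 1.5-fold difference could not be told from none at this depth for these genes.

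Fibroblasts had 4 of 5 measured members past the limit, against 14.6% of all 6796 genes. That count ran from 1 to 4 over 15 alternative settings, and the 4 members did not rest on equal ground. Ereg was lower in CL, with 192 Ctrl and 68 CL UMIs and a log2 ratio of -1.34 (-1.76 to -0.93), or -1.53 without the cell with most Ereg in each library. The 9 fibroblast markers together were lower as well, at 42761 CPM in Ctrl and 27209 CPM in CL, and the median fibroblast had 7913 and 5523 UMIs. The part of these differences in the Ereg result was not tested. Areg was higher in CL, at 161 and 251 CPM (0.64, 0.42 to 0.86), but 221 of its 416 CL UMIs lay in 1 cell, and without the top cells the ratio was -0.12 (-0.40 to 0.16). Hbegf was higher, at 53.5 and 100 CPM (0.90, 0.54 to 1.28), a difference that became -0.22 when cells with a high doublet score were kept. The 9 HR luminal markers stood at 720 and 1509 CPM and the 11 secretory-lineage markers at 858 and 1279 CPM in these fibroblasts. Their part in the Areg and Hbegf values was not tested beyond that. Nrg1, on 47 and 28 UMIs, was past the limit at -0.59 with an interval that included 0 (-1.32 to 0.12), and Egfr, the leading receptor of this class, was inside the limit at -0.22 (-0.43 to -0.02).

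**Figure D4:**
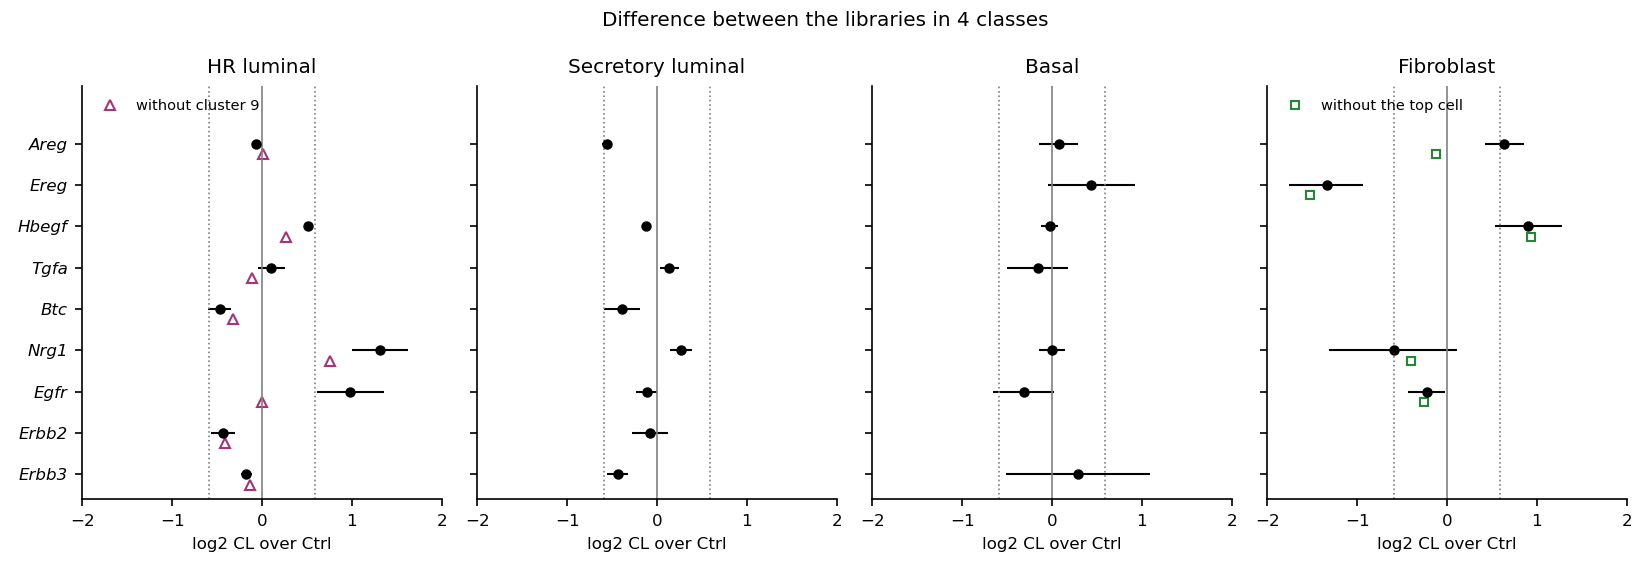
log2 ratio of CL over Ctrl (horizontal axis) of each member with at least 50 UMIs in 4 classes, with exact 95% intervals for counting error and dotted lines at 1.5-fold. Open triangles leave out HR cluster 9, where Egfr goes from 0.98 to -0.00, and open squares leave out the fibroblast with most UMIs of the gene in each library, where Areg goes from 0.64 to -0.12.

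In endothelial cells, macrophages and T and NK cells few members had enough UMIs. The endothelial log2 ratio of Hbegf was -0.80 (-1.03 to -0.58). Endothelial cells had been sorted against, so the 55 and 61 cells are those left after the gate. Endothelial Areg, described above with its 1 high cell, had a log2 ratio of 1.94. It was 0.96 without the top cells and -0.48 with each cell named alone. The HR luminal markers stood at 810 and 2630 CPM in that class. Macrophages had 164 and 28.1 CPM of Hbegf, a log2 ratio of -2.54 (-3.05 to -2.04) on 77 and 61 UMIs. In Ctrl 34 of those 77 UMIs lay in 1 cell. Within the C1q cluster the ratio was -0.67 (-1.63 to 0.29), and within the Lyz2 cluster, with 18 Ctrl cells, it was -3.87 (-4.54 to -3.20). In the macrophage class the basal markers stood at 524 and 57.6 CPM, the secretory-lineage markers at 1156 and 579 CPM, the neutrophil markers at 2116 and 5335 CPM and the 10 dissociation stress genes at 6353 and 3207 CPM. Their part in the Hbegf difference was not tested. Macrophage Nrg1 was 1.79 (0.16 to 4.12) on 3 and 48 UMIs, but 0.03 (-1.61 to 2.36) within the Lyz2 cluster, at 27.7 and 28.2 CPM. Among T and NK cells Hbegf was -0.42 (-0.86 to 0.05), and 32 of its 57 Ctrl UMIs lay in 1 cell. Without the top cells the direction turned, to 0.46 (-0.17 to 1.14). The 10 dissociation stress genes stood at 19799 and 20913 CPM in HR luminal, 12426 and 11293 CPM in secretory-lineage and 13058 and 14434 CPM in basal cells. They stood at 10964 and 9778 CPM in fibroblasts, 15311 and 15231 CPM in endothelial cells and 7423 and 5657 CPM in T and NK cells. Their part in the levels of the members was not tested.

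Of the other ligands and the fourth receptor, Epgn was at 31.9 and 36.2 CPM and Nrg4, a ligand of ERBB4, at 16.0 and 17.9 CPM in HR luminal cells. Endothelial Epgn was at 0 UMIs in Ctrl and 71.6 CPM in CL, above the HR luminal level, on 37 UMIs in 2 cells. Erbb4 was at 20.1 and 15.3 CPM in secretory-lineage cells and at 1.08 and 1.75 CPM in HR luminal cells. Egf itself was near 0, at 0.930 and 0.582 CPM in HR luminal cells.

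A list of 38 pathway genes covered these ligands, the shedding machinery, adaptors, feedback inhibitors and targets of ERK, the kinase at the end of the pathway. In HR luminal cells 37 were measured, 6 were higher past the limit in CL and 1 was lower, and their median log2 ratio was 0.16. Of all genes measured in the class, 4.60% were higher and 4.48% lower past the limit, with a median of -0.02. The highest were Timp3, an inhibitor of ADAM proteases, at 8.24 and 22.1 CPM (1.42, 1.26 to 1.59), and Fosl1, an AP-1 subunit, at 27.2 and 53.8 CPM (0.99, 0.89 to 1.08). Both were below their droplet levels. Without cluster 9 their ratios were 0.61 and 0.56, which put Fosl1 inside the limit. The count of genes past the limit was not recomputed without that cluster. The secretory-lineage markers given above for HR luminal cells stand beside this count, and their part in it was not tested. The lowest ratios in this class were those of Egf (-0.68, -1.35 to -0.01) and Adam10, a protease that sheds EGF family ligands, at 322 and 256 CPM (-0.33, -0.36 to -0.30). Without cluster 9 they were -0.92 and -0.26. Droplet levels were lower in CL too, at 0.726 and 0.360 CPM for Egf and 152 and 110 CPM for Adam10. The part of free RNA was not tested. In secretory-lineage cells none of 36 measured genes was past the limit, against 7% of all genes. Their lowest were Spry2, a feedback inhibitor of the pathway, at 236 and 173 CPM (-0.45), and Erbb4 (-0.39, -0.55 to -0.23), and their highest Timp3 (0.45) and Nrg4 (0.17), the last on 20 and 32 UMIs. In basal cells 3 of 32 measured genes were lower past the limit and none was higher, against 6.26% and 2.78% of all genes. They included Nrg2, at 11.1 and 5.01 CPM on 42 and 15 UMIs (-1.14, -2.10 to -0.26), and Spry1, at 47.6 and 28.1 CPM (-0.76, -1.16 to -0.38). The highest basal ratios were Shc1, an adaptor (0.28, -0.10 to 0.66), and Fosl1 (0.13, -0.05 to 0.32). In fibroblasts 7 of 29 were past the limit, 1 higher and 6 lower, against 5.89% and 8.73% of all genes. Of the 11 feedback inhibitors measured there, 4 were lower past the limit. The marker and depth differences given above for fibroblasts stand beside this count too, and their part in it was not tested. No pathway count, in any class, was recomputed under other settings.

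Genes with the most similar pattern to each member were sought over 21 clusters of at least 50 cells, by Pearson's r of log2(CPM + 1) among 6365 genes. The clusters share their libraries and free RNA, so r is a description. For Areg they were Gipc2 (0.97), Wfdc2 (0.97) and Prlr, the prolactin receptor (0.96). For Ereg they were Fbln7 (0.97), Ism1 (0.94) and Slit2 (0.94). Hbegf was closest to Epha2, an ephrin receptor (0.95), Lmna, which encodes lamin A (0.94), and Actn4, an actinin (0.93). Egfr was closest to Mier3 (0.96), Frmd6 (0.95) and Dclk1 (0.95), and Erbb3 to Mlph, Krt19, a luminal keratin, and Psmd3 (0.95 to 0.96). Erbb2 was closest to Rab15, Cyb561 and Nectin4 (all 0.95), Btc to Cobl (0.94), Homer2 (0.93) and Mboat1 (0.91), and Tgfa to Uchl3 (0.93), Prrg4 (0.89) and Ppl (0.89). Nrg1 had the weakest likeness, with Col9a3 (0.85), Stac2 (0.84) and Pkp1 (0.84).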

How the data were processed

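Single-cell RNA-seq of sorted mammary cells was analysed from 2 libraries, Ctrl and CL, grouped by their treatment label. The authors deposited raw UMI counts per gene and barcode, unfiltered and not normalized (6794880 barcodes). The submitters' processing notes name Cell Ranger 2.1.1 and mm10, and the file headers name Cell Ranger version 4. Members, lists and rules were chosen with earlier results of these data known. As the barcode lists did not index the matrix columns, the barcodes with most UMIs were taken, as many as each list held (7217 and 10555). Candidates held 98204064 and 133488160 UMIs. Filters of at least 500 genes and at most 15% mitochondrial UMIs left 6297 and 9335 cells, from which doublets were removed with Scrublet in scanpy 1.11.5 (360 and 509). Scrublet's own threshold marked 0 CL cells, so the Ctrl threshold was used for both, a choice made after seeing the data. The 12 retained barcodes found in both libraries were kept.

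Leiden clustering (2000 variable genes without members and pathway genes, 30 components, 15 neighbours, resolution 1.0) gave 24 clusters. Each cluster was named for its best-scoring marker list, provided that 3 of that list's markers were at least 2 times their median over clusters. Clusters with a rival class at 60% of that score stayed unnamed (66 and 77 cells), and cells of 1 dividing cluster were named individually. UMIs were summed per class and library. Levels carry exact Poisson, ratios exact conditional binomial and shares Clopper-Pearson intervals at 95%, which cover counting error only, and ratio intervals were tested on simulated data. Named genes were the 9 members, the 2 highest and 2 lowest pathway ratios in HR luminal, secretory-lineage and basal cells, and the 3 genes most like each member. In GENCODE M21, 32158 of the gene identifiers were found. edgeR 4.0.16 gave TMM factors as an alternative.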

Additional observations from a re-analysis of the deposited data

Results flagged for a closer look

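Hbegf differed between the libraries in opposite directions in different classes, beyond counting error in each. The log2 ratio of CL over Ctrl was 0.90 in fibroblasts, -0.80 in endothelial cells and -2.54 in macrophages. Without the cell with most Hbegf in each library the values were 0.94, -0.78 and -2.18. With doublets kept the fibroblast value was -0.22, in the direction of the endothelial and macrophage values. Within the C1q cluster the macrophage value was -0.67 (-1.63 to 0.29). The difference between these classes was not tested, since each group has 1 library. The values rest on 99 Ctrl and 166 CL UMIs in fibroblasts, 327 and 337 in endothelial cells and 77 and 61 in macrophages.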

How the results depend on the processing

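No paired analysis was possible because each group has 1 library. Leading classes held in 17 or 18 of 18 cases of member and library under each of 13 alternatives, and by share of cells in 15 to 17 of 18. The number of members past the limit moved most in fibroblasts. It was 4 as reported and 1 with at least 1000 genes per cell, with at least 200, with doublets kept, with each cell named alone or with a limit of 2-fold. It was 2 with CPM averaged over cells, with a mitochondrial limit of 5%, without that limit or without the top cell. In HR luminal cells the count of 2 became 1 at Leiden resolution 0.5, with doublets kept, at 2-fold or without cluster 9, and 3 with at least 200 genes per cell. The secretory-lineage count of 0 became 1 with CPM averaged over cells, a mitochondrial limit of 5% or without the top cell, and the basal count of 0 became 1 with CPM averaged over cells. Among differences past the limit and beyond counting error, signs reversed for fibroblast Areg (-0.12 with CPM averaged over cells and -0.12 without the top cell), endothelial Areg (-0.48 with each cell named alone), fibroblast Hbegf (-0.22 with doublets kept) and HR luminal Egfr (-0.0011 without cluster 9). The cause was not tested. Other ratios also changed sign under at least 1 setting, namely macrophage Areg (up to 1.47), T and NK Areg (up to 0.38) and Hbegf (up to 0.46), HR luminal Areg and Tgfa, and basal Areg, Ereg, Hbegf, Tgfa, Nrg1 and Erbb3. At 4000 UMIs the share of Areg-positive HR luminal cells with Egfr was 0.538% in Ctrl, inside the interval at 2000 UMIs, and 0.679% in CL, above it. Fibroblast Ereg ranged from -1.53 to -1.15. The alternatives without cluster 9, without the top cell and by macrophage cluster were chosen after seeing the data. Depth limits basal Erbb2 (22 and 14 UMIs) and Btc, which had too few UMIs to compare. Member levels in droplets of 50 to 100 UMIs were also taken, from 2397 Ctrl and 2626 CL droplets. They lay outside the interval of the droplets of 100 to 300 UMIs in 15 cases and inside it in 3. The counting error of the smaller set was not taken into account. Comparisons of classes with droplets were not repeated with it. TMM moved no class by more than 0.08 (log2) but macrophages, by -0.17.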
